A study of Mus musculus with 6 samples.

Results

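The UDP-glucuronosyltransferases (UGT), sulfotransferases (SULT) and glutathione transferases (GST) were examined in mouse liver RNA after partial hepatectomy (PHx), the removal of part of the liver, which then regrows. The members were all rows of the deposited gene table whose symbol begins with Ugt or Sult and a digit, or with Gst, 1 of the class letters a, k, m, o, p or t, and a digit. The rule found 68 of 34745 genes: 22 UGT, 25 SULT and 21 GST genes. The rule reads symbols and no measured value, but it was set with earlier results of these data known. By their symbols, 6 SULT rows and 1 GST row are pseudogenes.

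There were 6 RNA-seq libraries. In the HKO group (3 libraries) the genotype is labelled Sox9HKO, and the WT group (3 libraries) came from Sox9f/f mice, which carry the floxed allele and are not wild type at that locus. Both groups were C57BL/6, aged 12 weeks, and were sampled 48 h after PHx. By the labels these are hepatocytes of liver tissue. What drove the deletion, and the sex of the mice, are not given in the sources used here. Sox9, the targeted gene, was at 6.34, 4.30 and 4.79 CPM (read counts relative to library size, scaled by TMM) in HKO 1, 2 and 3 and at 6.94, 13.7 and 11.4 CPM in WT 1, 2 and 3, so the highest HKO library lay just below the lowest WT library (log2 fold change -1.05, adjusted p = 0.0284 by edgeR's quasi-likelihood test). Separate mice are not stated for the libraries, and the p-values below therefore reflect library-to-library spread, which may be technical.

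Libraries held 16659778 to 21168233 counts, with a count in 15509 to 16284 genes. HKO 2 stood apart from HKO 1 and HKO 3 on the second principal component, which carried 18.8% of the variance. The mitochondrial genes took 25.9% of its counts, against 12.1% to 16.3% in the other libraries. It also held the X-inactivation RNA Xist at 72.5 CPM, against 0.107 to 0.333 CPM elsewhere, while the Y-linked Ddx3y (30.1 CPM) and Eif2s3y (23.0 CPM) were present in it at the lowest levels of the 6 libraries. Summed endothelial markers were at 409.9 CPM in HKO 2 and at 83.5 to 169 CPM elsewhere, and summed stellate cell markers at 566 and 91.8 to 158 CPM. All 8 markers of Kupffer cells and macrophages rose in HKO, with sums of 160 to 241 CPM against 104 to 111 CPM in WT, and 2 of 2 tested B cell markers rose as well. Of 8 endothelial markers 1 rose, and of 8 stellate cell markers 3 rose. Over all genes tested 12.1% rose and 11.2% fell, so the endothelial count was near that share. Bile duct markers were lower in HKO, with 2 of 3 tested fallen (Sox9 itself and Spp1) and sums of 41.2, 57.5 and 34.8 CPM in HKO 1, 2 and 3, whereas WT 1, 2 and 3 were at 64.8, 171 and 147.5 CPM. The 6 hepatocyte markers, present in all libraries, summed to 67660 to 68390 CPM in HKO and 75690 to 93050 CPM in WT; 1 rose and 1 fell. The sample can thus hold RNA of other cells, and fewer cells of a type cannot be told apart from less RNA per cell. The part of these markers in the results below was not tested.

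UGT enzymes sit in the membrane of the endoplasmic reticulum and attach glucuronic acid from UDP-glucuronic acid to bilirubin, steroids, bile acids and drugs. SULT enzymes transfer a sulfonate group from the donor PAPS to phenols, steroids and bile acids in the cytosol, and GST enzymes join glutathione to electrophiles. These conjugates are more soluble and leave the hepatocyte through export pumps such as Abcc2 and Abcc3.

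The mouse Ugt1a genes form 1 cluster on chromosome 1 in which each gene has its own first exon, spliced onto the same exons 2 to 5. In the GENCODE M21 annotation (GRCm38), all 9 Ugt1a rows share the same 1311 exonic bases. The junction sequences show what a read needs to tell the rows apart: 30 bases from the end of exon 1 in lower case, and 30 bases from the start of exon 2 (chr1:88215044-88215175, plus strand) in capitals, the same in each gene. They are shown for the 3 rows that were called.
Ugt1a1: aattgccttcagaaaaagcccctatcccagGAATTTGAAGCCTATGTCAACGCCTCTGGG
Ugt1a9: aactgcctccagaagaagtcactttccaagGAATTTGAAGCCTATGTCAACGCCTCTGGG
Ugt1a7c: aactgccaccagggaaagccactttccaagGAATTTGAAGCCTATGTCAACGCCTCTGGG
Each of these has its own exon 1 end. Over the same stretch, which is not printed for them, Ugt1a6a and Ugt1a6b are identical to each other, as are Ugt1a5 and Ugt1a2.

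Across the families, many members were higher in HKO and few were lower. Of the 68 members, 11 were at 0 in every library and 14 others had too few counts for the test, which left 43 that were tested. By edgeR's quasi-likelihood test, 17 of the 43 rose in HKO (39.5%, against 12.1% of the 12556 genes tested), 2 fell (background 11.2%) and 24 were not called. In either direction 44.2% of the members tested were called, against 23.2% of all genes tested. The median log2 fold change, HKO minus WT, was 0.49 over the 43 members and 0.02 over all genes tested.

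By family, 47.1% of the tested UGT genes, 42.9% of the SULT genes and 42.1% of the GST genes were called. Among UGT genes 6 of 17 rose, 2 fell, and the median log2 fold change was 0.27. Among SULT genes 3 of 7 rose, none fell, and the median was 0.67. Among GST genes 8 of 19 rose, none fell, and the median was 0.70. The only 2 members that fell, Ugt2b37 and Ugt2b38, were both UGT genes; whether the families differ from each other was not tested. Without HKO 2, 18 members rose and 2 fell, while 24.8% of all genes tested were called. The family medians in that fit were 0.21, 0.31 and 0.82 in the order UGT, SULT, GST.

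**Figure D1:**
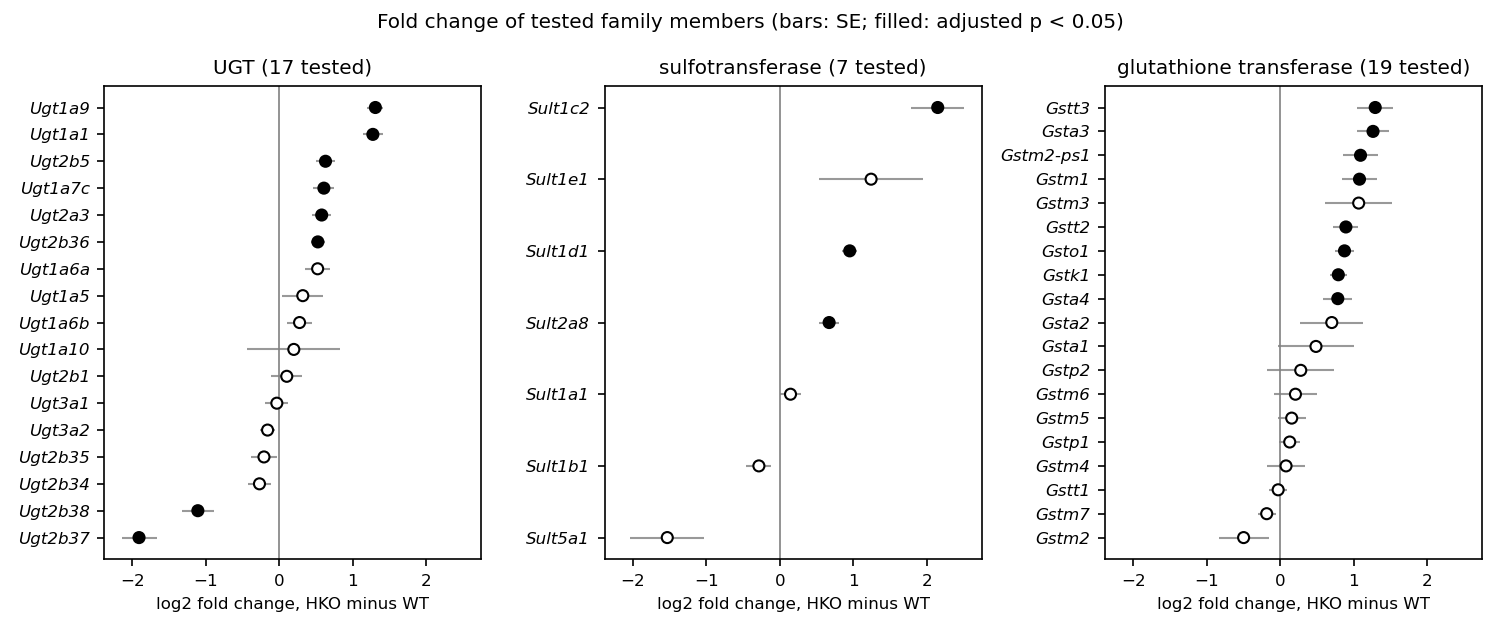
Log2 fold change, HKO minus WT, of the 17 UGT, 7 sulfotransferase and 19 glutathione transferase genes tested, with bars for the SE and filled points at an adjusted p below 0.05 (edgeR). Most filled points lie right of 0; the 2 on the left are Ugt2b38 (-1.11) and Ugt2b37 (-1.91).

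Leaving out 1 library changed these counts. Called members numbered 12 without WT 3, 14 without HKO 1 or without WT 2, 15 without HKO 3 and 20 without HKO 2 or without WT 1. The UGT count fell from 8 to 5 without WT 2 or without WT 3, and the GST count fell from 8 to 5 without HKO 1 or without WT 3. Over all genes tested, 11.5% were called without WT 3, 16.7% without HKO 1, 14.8% without WT 2 and 15.1% without HKO 3. The share was 24.8% without HKO 2 and 17.3% without WT 1, against 23.2% with all libraries, so the counts moved over the whole table too. In each of these fits 11 of the 19 called members stayed called: Ugt1a1, Ugt1a9, Ugt2b36, Ugt2b37, Sult1c2, Sult1d1, Gsta3, Gstk1, Gsto1, Gstt2 and Gstt3.

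The libraries of the groups did not overlap in 18 members that were higher in HKO (background 22.6% of all genes tested) and in 2 that were lower (background 21.6%). These were the 19 called members and Gstm3. Within the HKO group, HKO 2 was the lowest library in 15 of the 17 members that rose, with HKO 3 the lowest in the other 2. Within the WT group, WT 1 was highest in 8 of these 17, WT 3 in 7 and WT 2 in 2. WT 2 was the lowest WT library in most of them, such as Gstm1, Gsta3 and Ugt1a1. In Gstk1, Gsto1, Sult1c2 and Ugt2a3 the lowest was WT 1.

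**Figure D2:**
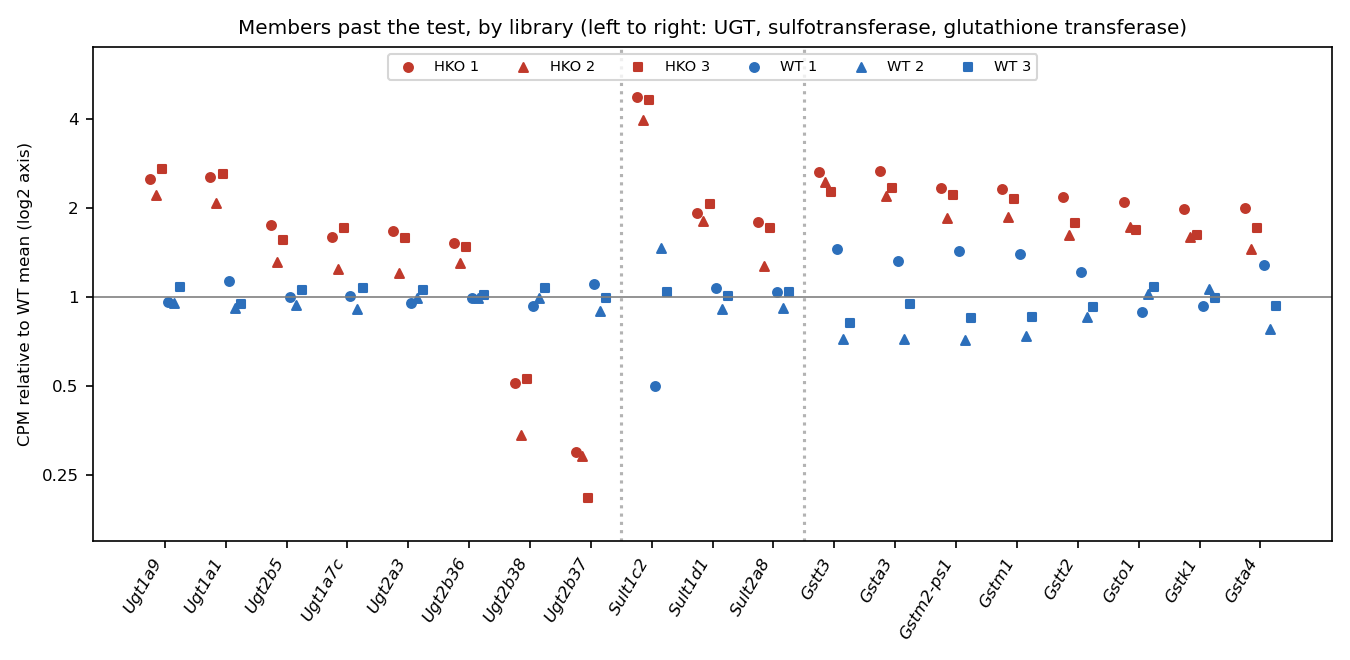
Level of the 19 called members in each library as CPM relative to the WT mean (log2 axis); circles, triangles and squares are libraries 1, 2 and 3 of HKO (red) and WT (blue). Red and blue points are separate in every member, and triangles of HKO 2 are lowest among the red in 15 of the 17 members that rose.

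Summed over each family, the level was higher in HKO in all 3, which is given as a description without a test. UGT genes together held 3958, 3300 and 3931 CPM in HKO 1, 2 and 3, whereas WT 1, 2 and 3 held 3180, 2609 and 2883 CPM, a ratio of means of 1.29. SULT genes held 788, 765.8 and 754 CPM in HKO, whereas the WT libraries held 505.9, 579.3 and 594.2 CPM, a ratio of 1.37. GST genes held 3081, 2431 and 2740 CPM in HKO, whereas the WT libraries held 2163, 1445 and 1633 CPM, a ratio of 1.575. The groups did not overlap in any of the 3 CPM sums. Summed from the deposited FPKM, which weights short genes such as Gstp1 more, the order of the ratios turned, with 1.411 for UGT, 1.487 for SULT and 1.353 for GST genes. On that scale the GST groups overlapped, since HKO 2 (1423 FPKM) lay below WT 1 (1606 FPKM).

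In the Ugt1a cluster, Ugt1a1 and Ugt1a9 rose by over 2-fold. Ugt1a1 (ENSMUSG00000089960, chr1:88211959-88218997, plus strand) encodes the enzyme that glucuronidates bilirubin. It was at 560.4, 458 and 570.8 CPM in HKO 1, 2 and 3 and at 249.7, 201.2 and 207.4 CPM in WT 1, 2 and 3. Every HKO library was far above every WT library, with a log2 fold change of 1.27 and an SE of 0.13 (adjusted p = 0.000901, edgeR's quasi-likelihood test).

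Ugt1a9 (chr1:88070800-88218997), which acts on phenols, was at 189.5, 167.5 and 204.8 CPM in HKO and at 73.2, 72.2 and 82.0 CPM in WT. The HKO libraries again lay well clear of WT, with a log2 fold change of 1.305 and an SE of 0.11 (adjusted p = 0.00036 by edgeR). Ugt1a7c was at 34.6, 26.8 and 37.1 CPM in HKO and at 21.9, 19.7 and 23.2 CPM in WT. The gap between its groups was narrow, and the log2 fold change was 0.605 (SE 0.14, adjusted p = 0.021 by edgeR). It was no longer called without HKO 1, HKO 3 or any 1 of the WT libraries (adjusted p between 0.0552 and 0.0745).

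The other Ugt1a rows did not pass the test. Ugt1a6a, an enzyme for planar phenols, was at 154.7, 99.7 and 142.9 CPM in HKO and at 101.3, 94.8 and 81.0 CPM in WT. HKO 2 lay among the WT libraries, and the log2 fold change was 0.52 (SE 0.17, adjusted p = 0.0626 by edgeR, and 0.00617 without HKO 2). The log2 fold changes of Ugt1a6b, Ugt1a5 and Ugt1a10 were 0.27, 0.32 and 0.20, all with overlapping groups, and Ugt1a10 ranged from 2.05 to 18.4 CPM within HKO. The remaining rows were not tested: Ugt1a2 had 0, 44 and 1 counts in HKO and 1, 0 and 126 in WT, so that 1 library of each group held nearly all of them, and Ugt1a8 had 4 counts, all in HKO 2.

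These rows are uncertain as single genes. The length behind the deposited FPKM (counts scaled by gene length and library total) of Ugt1a1, Ugt1a2, Ugt1a5 and Ugt1a9 is exactly exon 1 plus the 1311 shared bases, so each of these rows spans the shared exons. Yet Ugt1a8 was at 0 in 5 libraries, although it has the same shared exons as Ugt1a1. Reads in the shared exons were therefore not counted in full in every row, and the rule by which they were divided is not stated in the labels or headers. The exons of Ugt1a rows also overlap the antisense gene Gm20528.

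The sum of the rows does not depend on how reads were divided, as long as no read was counted in more than 1 row. Summed over the 9 rows, the counts gave 1093, 911.4 and 1083 CPM in HKO; the WT sums were 593.9, 495.1 and 506.4 CPM. No HKO library came near a WT library, and when the table was refitted with the cluster as 1 feature the log2 fold change was 0.95 (SE 0.13, adjusted p = 0.00231 by edgeR). With the cluster as 1 feature, 17 of 37 members were called, against 23.3% of all genes tested. The UGT family then had 4 higher and 2 lower of 11, with a median log2 fold change of -0.035. The sign of the UGT median therefore turned with the way the 7 tested Ugt1a rows, all with positive fold changes, were counted.

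The shares of single rows in the Ugt1a counts, as deposited, differed between the groups as well. Ugt1a1 held 51.3%, 50.2% and 52.7% of the Ugt1a counts in HKO 1, 2 and 3 and 42.0%, 40.6% and 41.0% in WT 1, 2 and 3. Ugt1a9 held 17.3%, 18.4% and 18.9% in HKO and 12.3%, 14.6% and 16.2% in WT. In both rows the HKO shares lay above all WT shares, while the share of Ugt1a6a was lower in HKO, at 14.2%, 10.9% and 13.2% against 17.0%, 19.1% and 16.0%. Shares within 1 cluster sum to a whole, so a higher share of Ugt1a1 goes with lower shares of other rows. They also depend on the unstated rule by which reads of the shared exons were divided. Whether the use of the first exons changed was not tested.

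**Figure D3:**
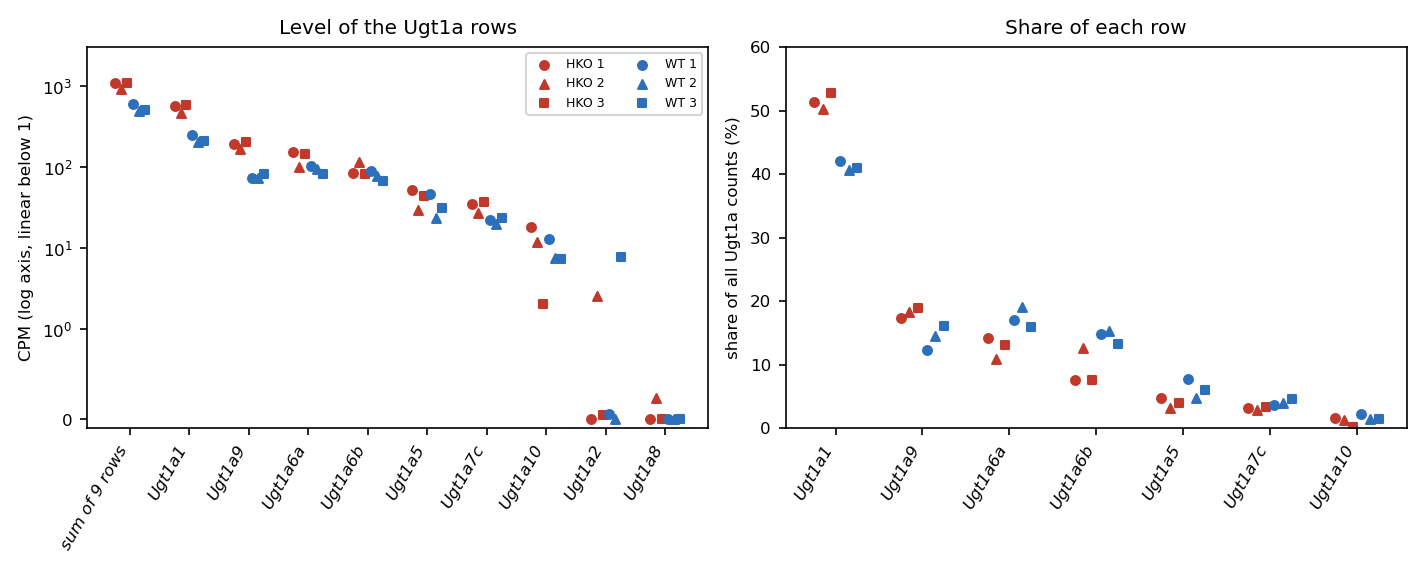
Left, CPM of the 9 Ugt1a rows and of their sum in each library (log axis, linear below 1); right, each row's share of all Ugt1a counts for the 7 tested rows. Points are libraries 1, 2 and 3 of HKO (red) and WT (blue); the sum, Ugt1a1 and Ugt1a9 are higher in every HKO library, and the Ugt1a1 share is 50.2% to 52.7% in HKO against 40.6% to 42.0% in WT.

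The Ugt2 genes of chromosome 5, whose enzymes act on steroids, bile acids and drugs, changed in both directions. Of 8 tested, Ugt2b5, Ugt2a3 and Ugt2b36 rose, Ugt2b37 and Ugt2b38 fell, and 3 were not called. Ugt2b5 (ENSMUSG00000054630, chr5:87124960-87140318, minus strand) had the highest level per length of the UGT genes, at 427 ± 79.8 FPKM in HKO and 275.6 ± 22.4 FPKM in WT (SD, n = 3). Next in the order of FPKM were Ugt1a1 (239.1 ± 40.5 and 99.1 ± 17.1) and Ugt2b36 (151.6 ± 19.8 and 105.3 ± 5.15).

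Ugt2b5 was at 896.7, 674.3 and 799.9 CPM in HKO 1, 2 and 3 and at 511.9, 483.1 and 539.8 CPM in WT 1, 2 and 3. HKO 2 was nearest to WT, and the groups did not overlap, with a log2 fold change of 0.63 and an SE of 0.13 (adjusted p = 0.0125 by edgeR, and 0.0518 without WT 2). Ugt2b36 was at 453.9, 389.3 and 438.8 CPM in HKO and at 295.4, 294.5 and 302.2 CPM in WT, where the 3 libraries were nearly level. Its log2 fold change was 0.52 (SE 0.10, adjusted p = 0.00868 by edgeR).

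Ugt2a3 was at 255.6, 185.2 and 243.1 CPM in HKO and at 145.8, 151.9 and 161.4 CPM in WT. HKO 2 stood closer to WT than to the other HKO libraries. The log2 fold change was 0.575 (SE 0.13, adjusted p = 0.0195 by edgeR), and the gene was no longer called without HKO 1, HKO 3 or any 1 of the WT libraries (adjusted p between 0.0592 and 0.0669).

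The 2 members that fell were among the least abundant UGT genes tested. Ugt2b37 (ENSMUSG00000057425, chr5:87240493-87254804, minus strand) was at 1.56, 1.51 and 1.09 CPM in HKO and at 5.78, 4.66 and 5.19 CPM in WT, from 24 to 29 and 83 to 104 counts. All 3 HKO libraries were low, and the log2 fold change was -1.91 (SE 0.24, adjusted p = 0.00169 by edgeR). Ugt2b38 (chr5:87409942-87424203, minus strand) was at 3.06, 2.04 and 3.14 CPM in HKO and at 5.55, 5.90 and 6.41 CPM in WT. Its groups were also separate, with a log2 fold change of -1.11 and an SE of 0.22 (adjusted p = 0.0112 by edgeR, and 0.0547 without WT 3).

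Both of these genes are close copies of Ugt2b5, which rose. The coding sequence of Ugt2b5 is the same as that of Ugt2b38 at 97.0% and as that of Ugt2b37 at 94.7% of aligned bases (GENCODE M21). Of the windows of 50 bases in its transcripts, Ugt2b38 shares 34.1% with Ugt2b5 and Ugt2b37 shares 15.2%, so their counts are uncertain where reads match both. In the 250 bases before the start, the sequences of Ugt2b37 and Ugt2b38 were the same at 94.9% of aligned bases, those of Ugt2b37 and Ugt2b5 at 87.6%, and those of Ugt2b38 and Ugt2b5 at 88.3%. The 150 bases before each start are shown because these near-copies moved in opposite directions; they come from RefSeq (GRCm38.p6), are written 5′ to 3′ on the minus strand of the genome, and have in capitals the bases that differ from Ugt2b37 or have no partner in it, at chr5:87254789-87254938, chr5:87424204-87424353 and chr5:87140341-87140490.
Ugt2b37: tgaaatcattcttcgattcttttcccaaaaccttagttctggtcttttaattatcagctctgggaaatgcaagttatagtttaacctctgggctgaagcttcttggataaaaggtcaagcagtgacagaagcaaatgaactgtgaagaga
Ugt2b38: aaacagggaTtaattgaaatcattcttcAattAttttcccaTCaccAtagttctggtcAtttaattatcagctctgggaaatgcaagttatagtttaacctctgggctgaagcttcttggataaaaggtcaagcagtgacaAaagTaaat
Ugt2b5: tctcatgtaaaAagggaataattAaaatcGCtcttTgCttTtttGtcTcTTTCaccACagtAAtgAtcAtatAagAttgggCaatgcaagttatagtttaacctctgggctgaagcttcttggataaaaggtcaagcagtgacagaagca
Ugt2b38 has 9 such bases and Ugt2b5, the gene that rose, has 22. Bases of Ugt2b37 that are missing from Ugt2b5 or Ugt2b38 are not marked, and the windows end at different points. The counts are therefore not the full difference. Most of the capitals in Ugt2b5 lie in 1 stretch before a run that all 3 genes share near the start.

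On chromosome 5 the genes that rose and those that fell are interleaved. In the order of their starts, Ugt2b34, Ugt2b1 and Ugt2b35 were not called, Ugt2b36 and Ugt2b5 rose, Ugt2b37 fell, Ugt2a3 rose and Ugt2b38 fell. After the silent Ugt2a1 and Ugt2a2, which overlap each other, follow Sult1b1 (not called), Sult1d1 (higher) and Sult1e1 (not called). The 3 Ugt2b genes that were not called had log2 fold changes of -0.27, 0.10 and -0.21. Ugt3a1 and Ugt3a2 on chromosome 15, whose enzymes use sugar donors other than UDP-glucuronic acid, had values of -0.035 and -0.16 and were not called. Ugt8a, the galactosyltransferase of myelin lipids, had 2 counts in all.

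**Figure D4:**
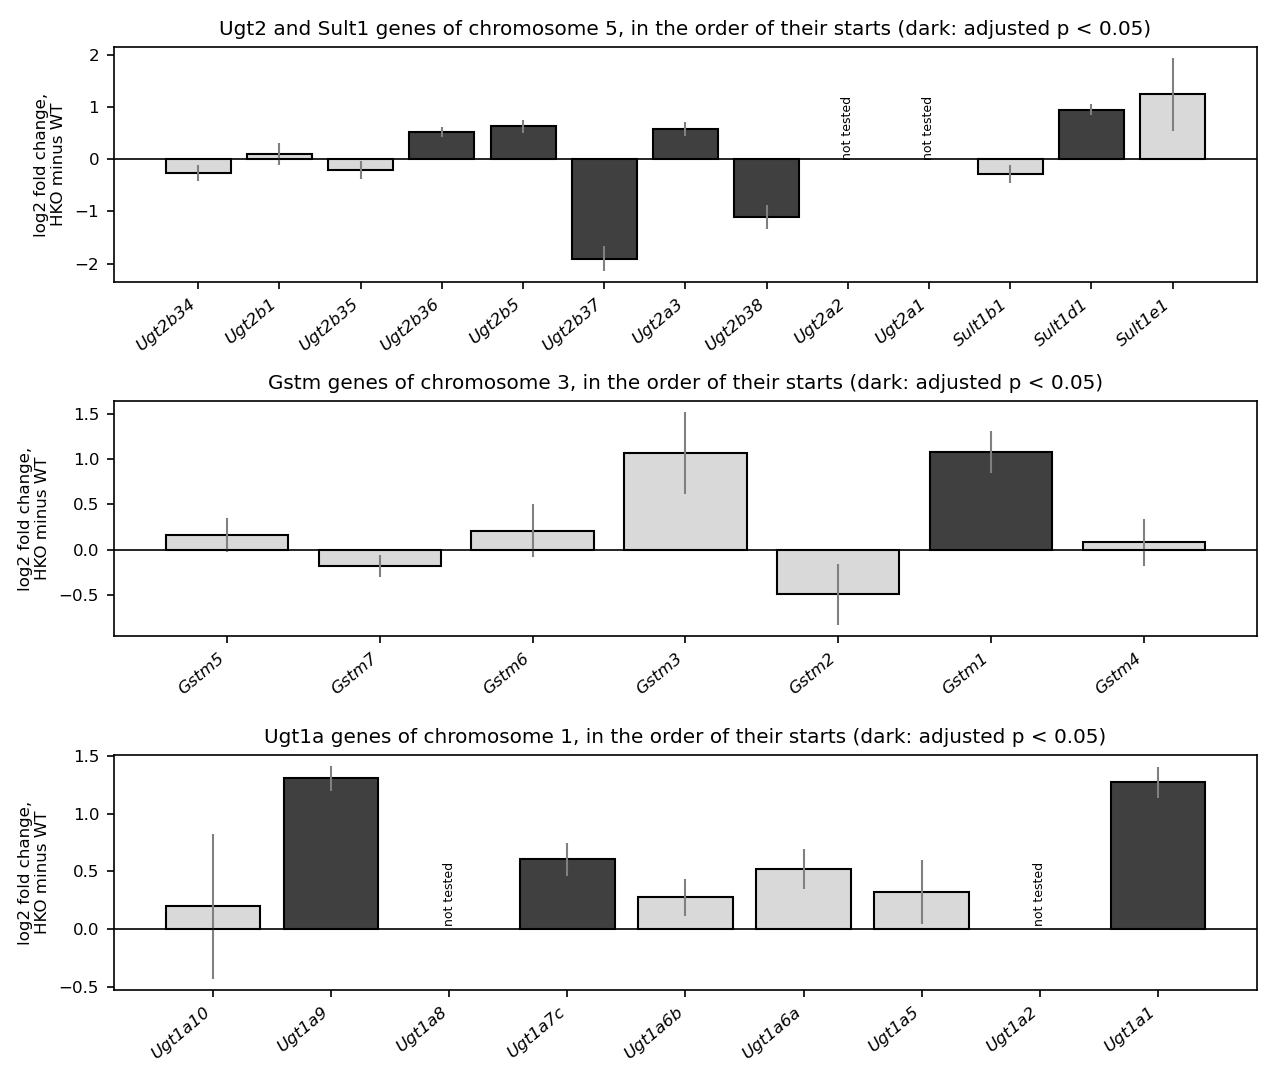
Log2 fold change, HKO minus WT, with its SE, of the Ugt2 and Sult1 genes of chromosome 5 (top), the Gstm genes of chromosome 3 (middle) and the Ugt1a genes of chromosome 1 (bottom), in the order of their starts and not to scale; dark bars have an adjusted p below 0.05. Ugt2b37 (-1.91) and Ugt2b38 (-1.11) point down on either side of Ugt2a3 (0.575), which points up.

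Among the sulfotransferases, Sult1c2, Sult1d1 and Sult2a8 rose and the most abundant gene was not called. Sult1a1, which acts on phenols, had the highest level per length, at 120.3 ± 10.1 FPKM in HKO and 108.2 ± 14.0 FPKM in WT (SD, n = 3). It was at 390.2, 363 and 350.5 CPM in HKO 1, 2 and 3 and at 266.2, 369.1 and 362.2 CPM in WT 1, 2 and 3. Only WT 1 was low, and the log2 fold change was 0.15 (SE 0.14, adjusted p = 0.482 by edgeR). Its exons overlap those of Sgf29 on the opposite strand.

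Sult1d1 (ENSMUSG00000029273, chr5:87554645-87569027, minus strand), whose enzyme sulfates catecholamines and other phenols, was at 201.2, 189.1 and 215.9 CPM in HKO and at 112.3, 95.8 and 105.6 CPM in WT. The spread within each group was small beside the gap, and the log2 fold change was 0.95 (SE 0.10, adjusted p = 0.00093 by edgeR). Sult1d1 was second by level in this family, at 78.8 ± 9.26 FPKM in HKO and 40.8 ± 5.18 FPKM in WT.

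Sult2a8 (chr7:14410686-14446769, minus strand), a liver bile acid sulfotransferase, was at 174.1, 123.5 and 165.7 CPM in HKO and at 100.8, 89.2 and 101 CPM in WT. HKO 2 lay between the other HKO libraries and WT. The log2 fold change was 0.67 (SE 0.14, adjusted p = 0.0134 by edgeR), with the call lost without HKO 3, WT 2 or WT 3 (adjusted p = 0.0506, 0.05315 and 0.0512). Per length it came next after Sult1d1, at 43.8 ± 9.78 FPKM in HKO and 27.4 ± 2.985 FPKM in WT.

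Sult1c2 had the largest fold change of the 43 members at a low level. It was at 4.73, 3.95 and 4.65 CPM in HKO and at 0.5, 1.46 and 1.04 CPM in WT, from 68 to 102 and 9 to 26 counts. Each HKO library was above each WT library, and the log2 fold change was 2.15 (SE 0.36, adjusted p = 0.006 by edgeR). Sult1c1, also on chromosome 17, was at 0 in every library.

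The other tested sulfotransferases were not called. Sult1b1, which acts on thyroid hormones, had a log2 fold change of -0.28, and Sult1e1, the estrogen sulfotransferase, 1.24 (adjusted p = 0.233 by edgeR) with HKO 2 alone high, at 4.13 CPM against 0.393 to 1.61 CPM elsewhere. Sult5a1 was at 1.99, 1.40 and 1.87 CPM in HKO and at 1.72, 7.98 and 5.55 CPM in WT. Its WT 1 library lay among the HKO libraries, and the log2 fold change of -1.53 did not pass (adjusted p = 0.0627 by edgeR, and 0.0056 without WT 1).

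The Sult2a genes encode sulfotransferases for steroids and bile acids and lie in 1 cluster on chromosome 7. Of Sult2a1 to Sult2a6, 4 had counts in HKO 2 only, and Sult2a1 and Sult2a2 had few counts outside it. Sult2a1 had 4, 566 and 0 counts in HKO 1, 2 and 3 and 1, 0 and 2 in WT 1, 2 and 3. Sult2a2 had 0, 445 and 0 counts in HKO and 9, 0 and 3 in WT. Nearly all counts of both thus came from HKO 2, where they stood at 32.9 and 25.9 CPM, while 3 counts are worth 0.137 to 0.183 CPM in these libraries.

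Sult2a5, Sult2a6, Sult2a3 and Sult2a4 had 56, 14, 8 and 2 counts in HKO 2 and none in any other library. Summed over Sult2a1 to Sult2a6, the counts were 4, 1091 and 0 in HKO and 10, 0 and 5 in WT. Sult3a1, a sulfotransferase for amines on chromosome 10, had 4 counts, all in HKO 2. None of these genes passed the filter for the test, so no difference between the groups is given. Sult2a2 shares 41.3% of its windows of 50 bases with Sult2a1 and 31.9% with Sult2a5, so the split of counts among them is uncertain, which does not touch their sum.

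Sult2a1, Sult2a2 and Sult3a1 are known as female-predominant genes of mouse liver, and Xist is read from the inactive X chromosome of females. In that library the 22 tested female-biased genes outside the 3 families had a median of 1.49 relative to the WT mean on the log2 scale, against 0.21 in HKO 1 and 0.40 in HKO 3. The Y-linked genes Kdm5d and Uty were read in all 6 libraries too, at 10.8 and 8.84 CPM in HKO 2 and at 11.1 to 22.1 CPM elsewhere. The part of sex, of a mixed sample or of the genotype in the Sult2a counts was not tested. Sult2a7 and Sult2a8, in the same cluster, did not follow this pattern: Sult2a7 had 6 counts in HKO 2 and 5 to 21 elsewhere, and Sult2a8 was lower in HKO 2 than in HKO 1 and HKO 3.

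**Figure D5:**
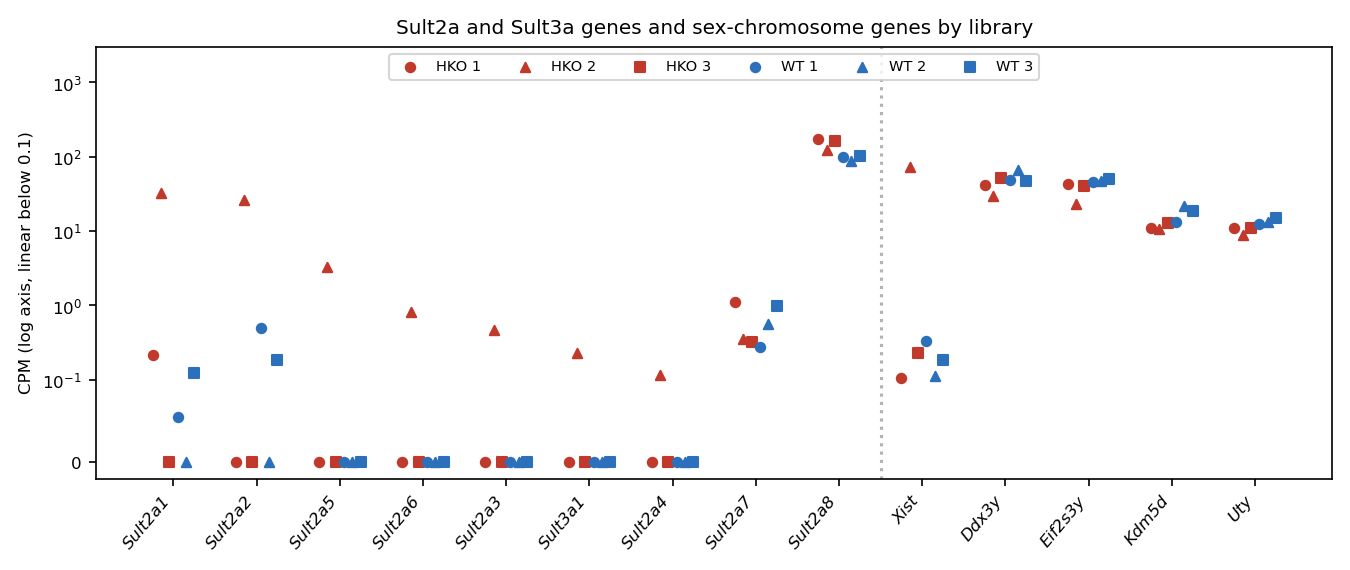
CPM of 8 Sult2a genes, Sult3a1 and 5 sex-chromosome genes in each library (log axis, linear below 0.1), with libraries 1, 2 and 3 of HKO in red and of WT in blue. Sult2a1 (32.9 CPM), Sult2a2 (25.9 CPM) and Xist (72.5 CPM) are high in HKO 2 alone, while Sult2a8 and the Y-linked genes are present in all 6 libraries.

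The remaining sulfotransferase rows held next to nothing. Sult2b1 had 2 counts and the pseudogene Sult2a-ps2 had 1. At 0 in every library were Sult1c1, Sult4a1, Sult6b1, and the pseudogenes Sult1c2-ps1, Sult1c2-ps2, Sult2a-ps1, Sult2a-ps3 and Sult2a-ps4.

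Among the glutathione transferases, members of the alpha, kappa, mu, omega and theta classes rose, and the pi class did not pass the test. Of the tested genes, 2 of 4 Gsta, 2 of 8 Gstm (1 of them a pseudogene), 2 of 3 Gstt, Gstk1 and Gsto1 rose, while neither Gstp gene was called. Gstp1 had by far the highest level per length of all 68 members, at 902.4 ± 203.7 FPKM in HKO and 821.5 ± 64.9 FPKM in WT (SD, n = 3). It was at 793, 548.7 and 696.9 CPM in HKO 1, 2 and 3 and at 636, 597 and 629.8 CPM in WT 1, 2 and 3. HKO 2 was the lowest and HKO 1 the highest of all libraries, and the log2 fold change was 0.13 (SE 0.145, adjusted p = 0.547 by edgeR), or -0.01 without HKO 1. Gstp2, whose coding sequence is the same as that of Gstp1 at 98.1% of bases, was at 1.07 to 2.72 CPM with overlapping groups.

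Gsta3 (ENSMUSG00000025934, chr1:21240589-21265661, plus strand), an alpha class enzyme that detoxifies aflatoxin in mouse liver, rose the most among abundant members of the family. It was at 624.2, 517 and 548.2 CPM in HKO and at 311.5, 169.3 and 223 CPM in WT. WT 1 was the highest WT library and still far below HKO 2, with a log2 fold change of 1.26 and an SE of 0.21 (adjusted p = 0.00574 by edgeR). Its level per length was 118.7 ± 16.6 FPKM in HKO and 49.9 ± 17.8 FPKM in WT.

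Gsta4, whose enzyme conjugates reactive lipid aldehydes, was at 84.0, 61.2 and 71.8 CPM in HKO and at 53.9, 32.9 and 39.3 CPM in WT. HKO 2 and WT 1 were close to each other. The log2 fold change was 0.78 (SE 0.20, adjusted p = 0.0248 by edgeR), and the call was lost without HKO 1, HKO 3, WT 2 or WT 3 (adjusted p = 0.0795, 0.0641, 0.0697 and 0.0965). Gsta1 and Gsta2, with log2 fold changes of 0.49 and 0.70, were not called. In both, WT 1 was high among the WT libraries, and without WT 1 Gsta2 was called (adjusted p = 0.0262 by edgeR).

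Gstm1 (ENSMUSG00000058135, chr3:108012255-108017973, minus strand), the main mu class gene of mouse liver, was at 804.8, 648.4 and 748 CPM in HKO and at 487.9, 257 and 297.2 CPM in WT. WT 1 stood above the other WT libraries and below every HKO library. The log2 fold change was 1.08 (SE 0.23, adjusted p = 0.0152 by edgeR), and the call was lost without HKO 1 or WT 3 (adjusted p = 0.0512 and 0.0713). Per length it was second to Gstp1, at 256.6 ± 40.1 FPKM in HKO and 122.6 ± 50.1 FPKM in WT.

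The pseudogene Gstm2-ps1 on chromosome 5 was at 80.3, 63.8 and 75.9 CPM in HKO and at 49.1, 24.7 and 29.3 CPM in WT. Its libraries had the order of those of Gstm1. The log2 fold change was 1.09 (SE 0.24, adjusted p = 0.0166 by edgeR), with the call lost without the same libraries, HKO 1 or WT 3 (adjusted p = 0.0556 and 0.0737). Its sequence is the same as the coding sequence of Gstm1 at 97.9% of bases, and 35.4% of its windows of 50 bases occur in Gstm1 transcripts, so it is not known how many of its counts are reads of Gstm1. The first 60 coding bases of Gstm1 are shown with those of Gstm2-ps1 (GENCODE M21, 5′ to 3′ as transcribed), with the base that differs from Gstm1 in capitals.
Gstm1: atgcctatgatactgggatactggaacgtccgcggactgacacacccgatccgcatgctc
Gstm2-ps1: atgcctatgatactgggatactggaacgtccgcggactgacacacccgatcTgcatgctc
A read of this stretch meets 1 difference between the gene and the pseudogene.

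Gstm3 was the only member with separate groups that was not called, and it is named here after its values were seen. It was at 138.3, 109.3 and 125 CPM in HKO and at 108.3, 24.8 and 44.6 CPM in WT. WT 1 nearly reached HKO 2, and the log2 fold change was 1.07 (SE 0.45, adjusted p = 0.125 by edgeR, and 0.00546 without WT 1). Gstm2 was the lowest of the family by fold change, at -0.50, with WT 1 alone high at 128.3 CPM against 45.2 to 61.4 CPM elsewhere. Gstm4, Gstm5, Gstm6 and Gstm7 had log2 fold changes from -0.18 to 0.21 and were not called.

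WT 1 was the highest WT library in 15 of the 19 GST genes tested, among them genes that were and were not called. Relative to the WT mean, the median of the 19 genes on the log2 scale was 0.53 in WT 1, -0.37 in WT 2 and -0.065 in WT 3, against 0.98, 0.57 and 0.69 in HKO 1, 2 and 3. WT 1 thus lay near HKO 2. Over all genes tested the medians of the 6 libraries were between -0.003 and 0.019. The UGT medians were 0.14, -0.08 and -0.001 in WT 1, 2 and 3.

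The theta class genes Gstt2 and Gstt3, of 1 cluster on chromosome 10, both rose. Gstt3 was at 39.9, 37.1 and 34.3 CPM in HKO and at 22.0, 10.95 and 12.4 CPM in WT. Its groups were well apart, with a log2 fold change of 1.29 and an SE of 0.25 (adjusted p = 0.00945 by edgeR), though 524 bases of its exons overlap the gene Gm20441 on the same strand. Gstt2 was at 45.9, 34.2 and 37.5 CPM in HKO and at 25.7, 18.1 and 19.5 CPM in WT. No libraries overlapped, and the log2 fold change was 0.89 (SE 0.17, adjusted p = 0.00904 by edgeR). Gstt1, in the same cluster, had a log2 fold change of -0.03 and was not called, and Gstt4 was at 0 in every library.

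Gsto1, an omega class enzyme that reduces dehydroascorbate and arsenic compounds, was at 66.4, 54.6 and 53.6 CPM in HKO and at 28.4, 32.6 and 34.2 CPM in WT. The log2 fold change was 0.875 (SE 0.12, adjusted p = 0.00289 by edgeR). Gstk1, the kappa class enzyme of mitochondria and peroxisomes, was at 111.7, 89.9 and 91.2 CPM in HKO and at 52.8, 60.3 and 56.1 CPM in WT, with a log2 fold change of 0.79 and an SE of 0.115 (adjusted p = 0.00331 by edgeR). In both genes WT 1 was the lowest WT library, unlike in the called alpha, mu and theta genes, and the groups were far apart. Gsto2 had 3 counts in each of HKO 2 and HKO 3 and 5 in WT 1.

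Promoter windows of RefSeq (GRCm38.p6, 250 bases before to 50 after a start) were found for 53 of the 68 members, 63 windows in all. The core of the antioxidant response element, TGACNNNGC on either strand, was in 3 of 25 GST windows (12.0%, those of Gsta3, Gstm5 and Gstm7) and in none of the 20 UGT or 18 SULT windows, against 12.4% of 32851 windows in the table. Of these only Gsta3 rose; its match, which begins 121 bases before the start, is shown in capitals with the bases on either side (chr1:21240424-21240512, plus strand).
Gsta3: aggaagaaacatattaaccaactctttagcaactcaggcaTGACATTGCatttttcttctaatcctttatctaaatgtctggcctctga
The core bound by AhR and ARNT, GCGTG, was in 13 of the 63 windows (20.6%, against 32.4% of all windows). A STAT core, TTCNNNGAA, was in 4 (6.35% against 8.30%). The HNF1 motif and the DR4 repeats of nuclear receptors were in none of the 63 windows and in 0.0091% and 0.0122% of all windows. Exact matches are so rare that 63 windows cannot show a difference, and sites that depart from the exact letters were not searched. All motifs were searched on both strands. Over the 63 windows none of the antioxidant, AhR-ARNT and STAT cores was more frequent than in the table, and a match shows letters only.

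Regulators of these families changed in part. Of 26 tested, 6 rose and 1 fell (background 12.1% and 11.2% of all genes tested); the median was 0.17 on the log2 scale. The xenobiotic receptor genes Nr1i3 (CAR), whose exons overlap Tomm40l on the opposite strand, and Nr1i2 (PXR) rose, with log2 fold changes of 1.235 and 0.95 (SE 0.15 and 0.11). Nr1i3 was at 157.4, 147.4 and 150.1 CPM in HKO and at 80.1, 53.8 and 59.25 CPM in WT, with no overlap. The aryl hydrocarbon receptor gene Ahr (0.59), the small Maf genes Maff (2.20) and Mafg (0.75) and Cux2 (2.93), a female-biased repressor gene, rose too, and the glucocorticoid receptor gene Nr3c1 fell (-0.49). Nfe2l2, which encodes the oxidative stress factor NRF2, had a log2 fold change of 0.01 and its inhibitor Keap1 -0.08, and neither was called.

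Genes in and around the supply of the donors of the 3 reactions changed in both directions. The counts of these lists stand beside 12.1% of all genes tested that rose and 11.2% that fell. For UDP-glucuronic acid 2 of 7 rose, Pgm2 (0.63) and Ugp2 (0.46), with a median of 0.20. For sulfate and PAPS 3 of 13 rose: Csad (1.535), Cdo1 (1.01), which acts on cysteine, and Suox (0.90), which acts on sulfite. In the same list 3 fell, among them the PAPS synthase gene Papss1 (-1.06), and the median was -0.18. For glutathione 8 of 22 rose, 2 fell, and the median was 0.41; Mat1a (2.28), Cth (1.84) and Gnmt (1.41), which handle methionine and cysteine, rose the most and Ggct (-1.35) fell. A further list held genes outside the name rule for glutathione transferases or for proteins with a related domain. Of its 10 tested genes, Mgst3 (0.655) rose and Gstcd (-0.95) and Eef1g (-0.585) fell, with a median of 0.13.

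Among 19 genes of conjugate export and deconjugation 8 rose and 1 fell, and the median was 0.575. For this list and those below, the background was 12.1% of all genes tested that rose and 11.2% that fell. The basolateral conjugate pump gene Abcc3 rose with a log2 fold change of 1.48, the uptake carrier gene Slco1a4 with 1.23 and the glucuronidase gene Gusb with 1.05, while the organic anion carrier gene Slc22a7 fell by 2.71 on the log2 scale. Of 18 tested target genes of CAR and PXR outside the families, 8 rose and 1 fell (median 0.50), with Alas1 (2.5), Por (2.12) and Cyp2b10 (1.355) among them. Relative to the WT mean, the median of the CAR and PXR list on the log2 scale was 0.356 in WT 1, near the 0.391 of HKO 2. It was 0.716 and 0.621 in HKO 1 and 3 and -0.232 and -0.015 in WT 2 and 3. Of 4 tested AhR target genes Tiparp rose (0.97). The AhR list summed to 555 CPM in WT 1, above the HKO libraries (431.4 to 456.9 CPM), and to 196.1 and 265.6 CPM in WT 2 and 3. Of 24 NRF2 target genes 10 rose and 1 fell (median 0.62), with Cbr1 (1.46), Hmox1 (0.99), Ftl1 (0.95) and Ephx1 (0.935) the furthest up. Slco1a4 and Cyp2b10 each stand in more than 1 list.

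Sex-biased liver genes outside the families also differed. Of 22 tested female-biased genes 10 rose and 2 fell (median 0.98), and of 37 male-biased genes 5 rose and 19 fell (median -0.65). Over all genes tested 12.1% rose and 11.2% fell. The largest changes were in Cyp2a4 (7.75), a female-biased cytochrome P450 gene, and Mup17 (-4.92), a male-biased urinary protein gene. Among the sex-chromosome genes, 1 of 4 tested fell (Kdm5d, -0.62), with a median of -0.41. Relative to WT, the female-biased list had medians of 0.21, 1.49 and 0.40 in HKO 1, 2 and 3. Its median was thus by far the highest in HKO 2. The male-biased list had medians of -0.46, -0.78 and -0.55 in HKO 1, 2 and 3, so it was low in all 3. Sult2a1 to Sult2a6, in contrast, were high in HKO 2 only.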

How the data were processed

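HISAT2 2.0.4, StringTie 1.3.0, mm10 and GRCm38.p4 are named in the submitters' processing notes, without settings. For each gene and library the authors deposited an unnormalized count (a whole number) and an FPKM value, per the file headers. Among genes that had 50 or more counts throughout (9308 genes), each FPKM followed from the count, the library total and 1 length per gene. The protocols in the labels name no strand-marking step.

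The counts of all 34745 genes were fitted in R 4.3.3 with edgeR 4.0.16 (filterByExpr, which kept 12556 genes, TMM scaling, quasi-likelihood F-test of HKO against WT with no block). Benjamini-Hochberg adjustment ran over all 12556 genes, and called means an adjusted p under 0.05. Fold changes are log2, HKO minus WT, and the SE is the absolute log2 fold change over the square root of F. Levels are TMM-scaled CPM, and levels of different genes were compared by FPKM only. The fit was checked on simulated data with known fold changes. These had the same dispersion (spread between libraries) for every gene and no outlying library, so the check does not measure error rates in the present data. Alternatives used DESeq2 1.42.0 and limma 3.58.1 (voom), other scalings and filters, a replicate block, summed Ugt1a rows, no mitochondrial genes, and each library left out.

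Described with values for each library were, in each family, up to 8 called members of largest fold change and the 3 of highest FPKM. All Ugt1a rows were accounted for. Up to 4 called genes of each context list could be named, and most were given by fold change only. In the regulator and sex-chromosome lists any tested gene could be named. Others were named after their values were seen. The members and lists were chosen with earlier results of these data known. All 68 members were found by identifier in GENCODE M21, 56 of them with the same coordinates. Of 283 list entries 281 were matched by symbol.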

Additional observations from a re-analysis of the deposited data

How the results depend on the processing

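The 17 higher and 2 lower calls were all kept under each other scaling and filter, limma-voom, the DESeq2 test and the fit without mitochondrial genes, and no called member changed sign in any fit run. With 1 library left out, called members numbered 12 to 20 over all 3 families (12 without WT 3, against 19), 5 to 9 among UGT, 2 to 4 among sulfotransferases and 5 to 10 among glutathione transferases, and 12 to 19 of the 19 members named for a change kept the call. In the same fits 1439 to 3109 of all genes tested were called. The log2 ratio of the summed levels from CPM and from the deposited FPKM was 0.368 and 0.497 for UGT, 0.459 and 0.572 for sulfotransferases and 0.655 and 0.436 for glutathione transferases, so the order of the families depends on the scale. With 1 library left out the CPM ratios ranged from 0.30 to 0.45, from 0.39 to 0.50 and from 0.54 to 0.84. Gstp1, not called, turned from 0.13 to -0.01 without HKO 1 and was 0.263 without HKO 2, the range with 1 library left out; the cause was not tested. DESeq2 called Ugt1a6a (adjusted p = 0.0299) and Sult5a1 (adjusted p = 0.0126) as well. Without a filter on low counts 17 sulfotransferase rows were fitted and 3 were called, against 14.6% of all genes fitted. The median of 1.84 over these rows includes genes at 0 in a group, whose fitted values depend on the prior count. Same-numbered libraries' deviations from their group means correlated at -0.002, 0.002 and 0.072, and only HKO 3 correlated best with its own number. With 3 libraries per group these values cannot show whether same-numbered libraries were paired. A replicate block gave 20 called members, 9 of them glutathione transferases (Gstm3 added), 8 UGT and 3 sulfotransferases, with 19 of 19 kept. Over all genes tested 18.8% were called with that block. Depth limits the genes under about 3 counts in a library, 0.137 to 0.183 CPM.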
